A study of Mus musculus with 48 samples.

Results

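The 10 genes described here move salt, magnesium and calcium across the cells of the distal convoluted tubule and the connecting tubule that follows it, or set the rate at which they do so. They are Slc12a3, Wnk1 and Klhl3 for salt, Trpm6 for magnesium, Trpv5, Calb1, S100g, Slc8a1 and Atp2b1 for calcium, and the calcium buffer Pvalb. They were chosen by name, with earlier results of these data known. Each was read on the probe set that carries its symbol alone and has the highest mean over all arrays. Of the 10 genes, 8 had such a probe set and all 8 passed the filter on low values, among 13174 genes tested. Trpv5 and Klhl3 were matched to no probe set and were not analysed here. RNA of whole kidneys was measured in 48 mice on Affymetrix arrays, 1 array per mouse. The mice were of the FVB strain, which the study calls predisposed to kidney lesions, or of the C57BL/6 strain (B6 below), which it calls not predisposed. They were 9 weeks old when they underwent subtotal nephrectomy (Nx), which leaves a remnant of kidney, or a sham operation, and kidneys were taken 2, 28 or 53 days later. This gave 12 groups of 4 mice, and the labels name no transgene, mutant allele or drug in any of them. Values are the deposited log2 expression values, and the spread given with a group mean is the standard deviation (SD) between its mice.

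The distal convoluted tubule reabsorbs sodium chloride through the thiazide-sensitive cotransporter Slc12a3, which kinases of the WNK family switch on by way of a second kinase that phosphorylates it. The same cells take up magnesium through the channel Trpm6. At the end of this segment and in the connecting tubule, calcium enters through Trpv5, is carried across the cell bound to the calbindins Calb1 and S100g, and leaves through the sodium-calcium exchanger Slc8a1 and the calcium pump Atp2b1. Pvalb marks the early part of the segment and is also abundant in fast skeletal muscle. Whole-kidney RNA mixes all nephron segments, so fewer distal tubule cells and less RNA per cell cannot be told apart in any comparison below.

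The 250 bases before the transcription start are shown for 4 genes that fell together after surgery, 1 for each role: Slc12a3 for salt, Trpm6 for magnesium, S100g for calcium and Pvalb as the marker of the early segment. The sequences are RefSeq's, build GRCm38.p6, written 5' to 3' on the gene's strand: chr8:94328958-94329207 on the plus strand, chr19:18749480-18749729 on the plus strand, chrX:162964600-162964849 on the minus strand and chr15:78206401-78206650 on the minus strand. Capitals mark matches on either strand to 3 motifs, none of which overlap in the windows shown: AGGTCA (bound by nuclear receptors), GCCNNNGGC (the site of AP-2 factors) and TATAAA (the TATA box).
Slc12a3: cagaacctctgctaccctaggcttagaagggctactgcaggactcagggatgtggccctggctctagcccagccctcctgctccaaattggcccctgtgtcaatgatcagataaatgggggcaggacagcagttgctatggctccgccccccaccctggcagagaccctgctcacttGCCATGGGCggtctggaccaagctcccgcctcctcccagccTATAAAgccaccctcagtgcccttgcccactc
Trpm6: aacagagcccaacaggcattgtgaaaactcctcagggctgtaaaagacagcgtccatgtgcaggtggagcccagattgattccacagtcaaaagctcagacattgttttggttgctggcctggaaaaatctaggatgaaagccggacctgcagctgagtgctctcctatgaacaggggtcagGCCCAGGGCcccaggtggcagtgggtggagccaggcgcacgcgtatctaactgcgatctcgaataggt
S100g: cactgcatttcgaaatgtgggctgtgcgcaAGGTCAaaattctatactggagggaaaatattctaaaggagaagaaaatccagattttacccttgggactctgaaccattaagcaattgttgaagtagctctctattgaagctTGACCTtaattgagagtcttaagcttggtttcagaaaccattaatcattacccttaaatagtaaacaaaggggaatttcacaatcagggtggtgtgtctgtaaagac
Pvalb: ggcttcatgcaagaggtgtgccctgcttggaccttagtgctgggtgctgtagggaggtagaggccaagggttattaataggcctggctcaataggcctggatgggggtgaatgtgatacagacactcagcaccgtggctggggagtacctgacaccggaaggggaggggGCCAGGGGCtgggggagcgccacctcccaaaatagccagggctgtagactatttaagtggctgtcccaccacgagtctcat
The RefSeq table held 11 promoters of 9 of the 10 genes, with a second one for Pvalb and for Atp2b1 that is not shown. GCCNNNGGC was in the windows of Slc12a3, Trpm6, Pvalb (both promoters) and Wnk1, which is 4 of 9 genes. It was in 13.7% of 32851 promoters of the same length, a share that counts promoters and not genes. The motif is made mostly of G and C. Those windows were 54.4% to 71.6% G and C, against a median of 52.4% over all promoters. AGGTCA, in 14.0% of promoters, was found in S100g alone, once on each strand. TATAAA, in 12.4% of promoters, was in Slc12a3 and Trpv5. A match describes letters in a window and does not show a site in use.

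Most of these transcripts were below sham 2 days after surgery in both strains. At day 28 few differed from sham. At day 53 they had fallen again, and further, in FVB mice. In FVB kidneys at day 2, 7 of the 8 genes fell and 1 rose, where 30.0% of all genes tested fell and 24.8% rose. In B6 kidneys at day 2, 6 fell, 1 rose and Slc8a1 did not pass, where 24.4% of all genes fell and 20.2% rose. At day 28, 2 of the 8 fell in FVB (8.81% of all genes) and 3 fell in B6 (9.14%). At day 53, 7 of the 8 fell and 1 rose in FVB, where 27.8% of all genes fell and 25.9% rose. In B6 at day 53, 2 of the 8 fell, where 6.68% of all genes fell and 8.03% rose. Most counts at day 2 and in FVB at day 53 were above these shares, but surgery changed many genes outside the group too. Since the genes were chosen with earlier results of these data known, the counts are a description and no test of the group. The 8 genes had a median log2 difference of -0.86 in FVB at day 2 and -1.84 at day 53, while the median over all genes tested was -0.03 and -0.01. In B6 the medians were -0.47 at day 2 and -0.09 at day 53, beside -0.02 and -0.01 over all genes. Trpm6 and Wnk1 were the 2 genes called lower in all 6 surgery comparisons. Slc12a3 and Pvalb also had negative differences in all 6, but not all of these passed. All adjusted p-values here are two-sided and come from limma, with Benjamini-Hochberg adjustment over the 13174 genes and 0.05 as the threshold, and differences are given on the log2 scale with their standard error (SE).

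**Figure D1:**
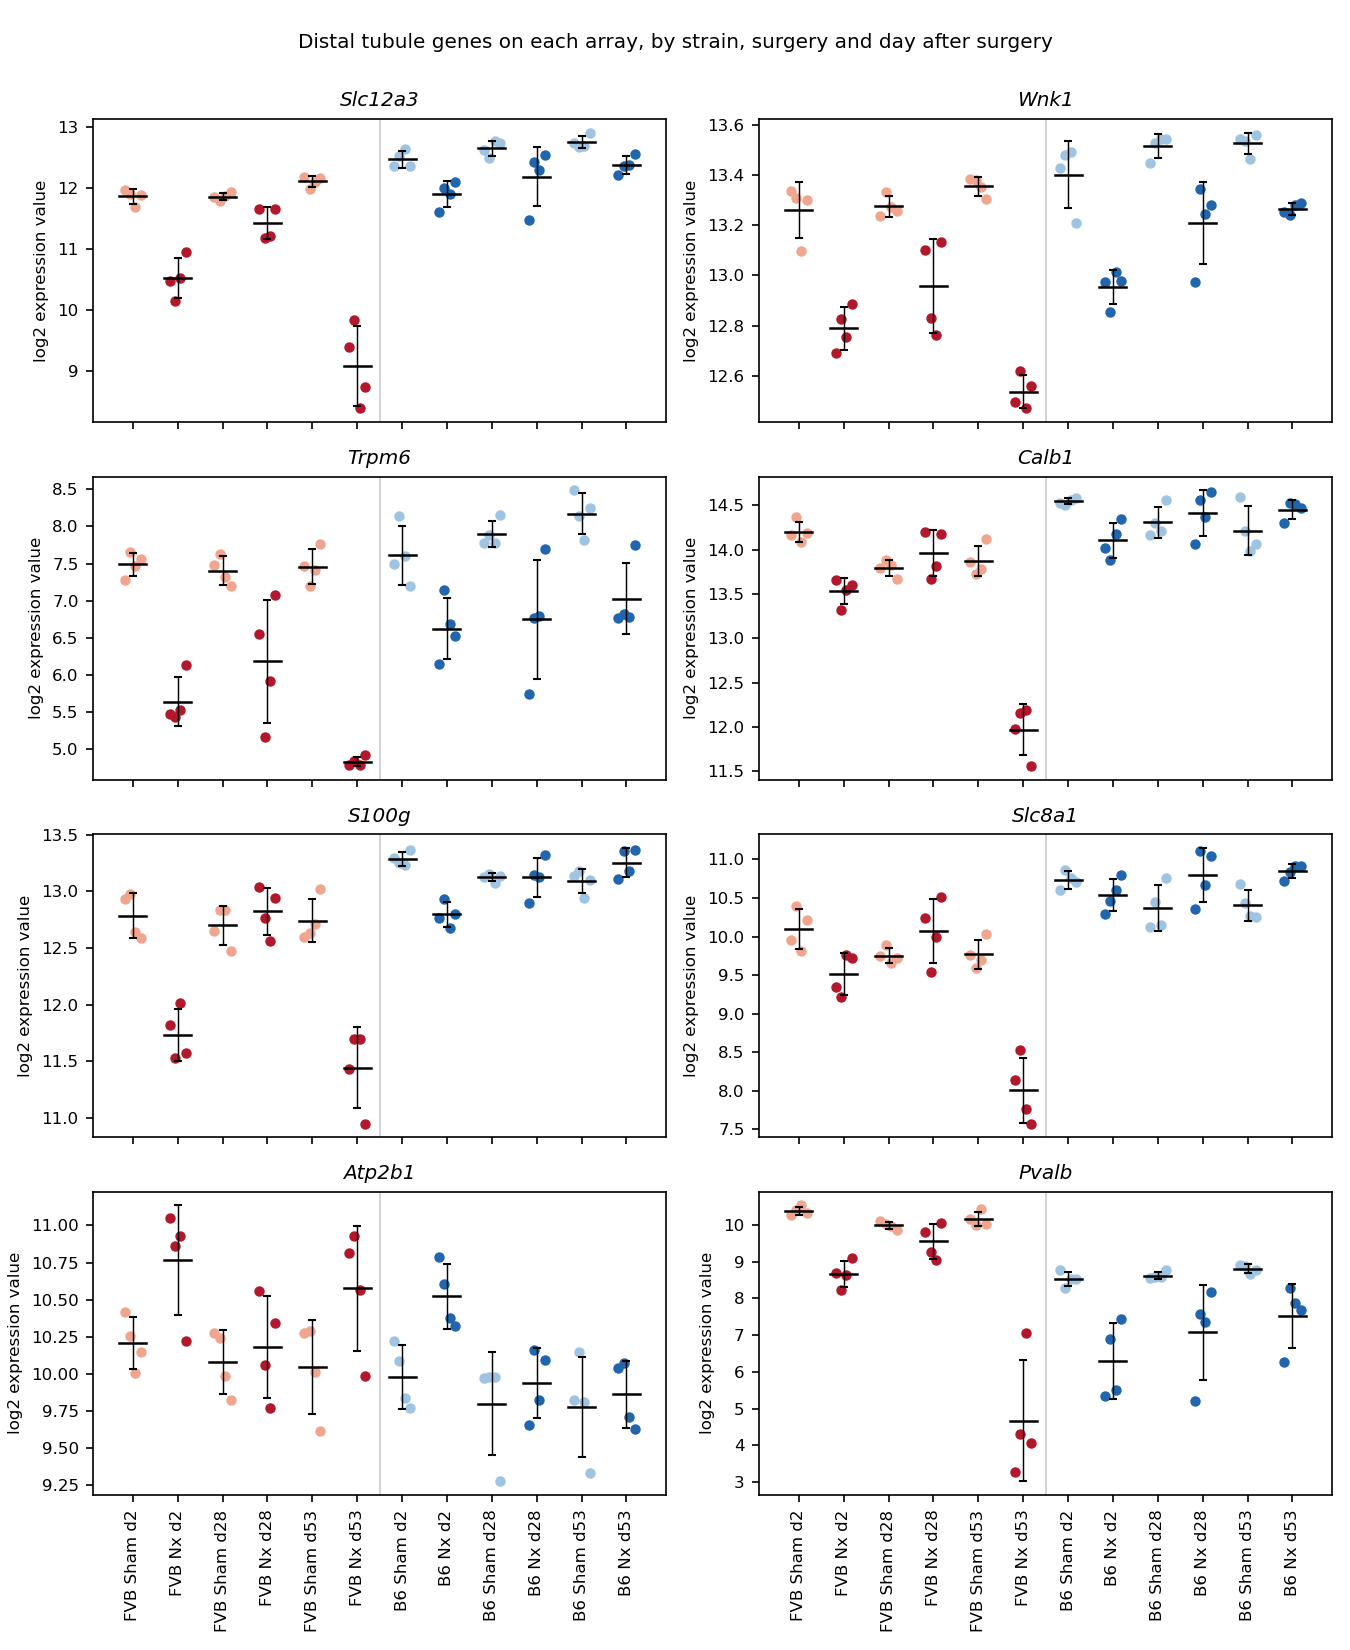
Log2 expression value of the 8 measured genes on each of the 48 arrays, by strain, surgery (Nx or sham) and day (d) after surgery; points are mice, horizontal bars group means and vertical bars SD (n = 4), and each panel has its own axis range. The FVB Nx mice of day 53 have the lowest group mean in 7 of the 8 panels, all but Atp2b1.

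Slc12a3, the salt cotransporter itself, showed the course most clearly. In FVB mice at day 2 it read 10.15, 10.47, 10.54 and 10.95 after Nx and 11.69, 11.89, 11.91 and 11.97 after sham. At day 28 the Nx mice had 11.19, 11.22, 11.66 and 11.66 and the sham mice 11.78, 11.85, 11.87 and 11.93. By day 53 the Nx values were 8.39, 8.73, 9.39 and 9.84, against 11.98, 12.11, 12.16 and 12.18 in sham mice. The 2 groups did not overlap at any of these days, the gap was narrow at day 28, and the day 53 remnants lay below every other array of the series. The difference was -1.34 at day 2 (SE 0.19, adjusted p = 2.56e-07), -0.43 at day 28 (SE 0.19, adjusted p = 0.134) and -3.02 at day 53 (SE 0.19, adjusted p = 1.14e-15), an 8.10-fold lower value. Limma called the day 28 difference with array weights (-0.37, adjusted p = 0.0433) and with Myh1 as a covariate (-0.66, adjusted p = 0.0114), and under no other setting. A second Slc12a3 probe set, dim at a mean of 3.00, did not pass in FVB at day 2 (-0.54, SE 0.24, adjusted p = 0.0626), day 28 (-0.08, adjusted p = 0.948) or day 53 (-0.51, adjusted p = 0.0825), and passed in B6 at day 28 (-0.72, adjusted p = 0.0402).

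In B6 mice the same transcript was lower at day 2, and the later differences did not pass. At day 2 it read 11.61, 11.90, 11.99 and 12.09 after Nx against 12.36, 12.36, 12.53 and 12.65 after sham, a difference of -0.57 (SE 0.19, adjusted p = 0.015) that the limma test no longer called without Nx mouse 11 (-0.48, adjusted p = 0.0684). At day 28 the Nx mice had 11.48, 12.30, 12.43 and 12.54 and the sham mice 12.50 to 12.77. At day 53 the Nx values of 12.21, 12.37, 12.38 and 12.56 lay just under the sham values of 12.67, 12.70, 12.74 and 12.91. These differences were -0.47 (adjusted p = 0.0903) and -0.37 (adjusted p = 0.213), with an SE of 0.19 each. Both calls depended on the setting. At day 28 limma called it without Nx mouse 9 (-0.58, adjusted p = 0.0413), without muscle arrays (adjusted p = 0.0283), with averaged probe sets (-0.59, adjusted p = 0.0158), with Myh1 as a covariate (-0.76, adjusted p = 0.0045) and without pancreas arrays, which leaves 1 Nx mouse (-1.18, adjusted p = 3.54e-05), while without Nx mouse 3 it was -0.23 (adjusted p = 0.513). At day 53 it was called with the comparison's own arrays (adjusted p = 0.0277), with array weights (-0.36, adjusted p = 0.0405) and with Myh1 as a covariate (-0.70, adjusted p = 0.0143). Ordered by group mean, Slc12a3 ran from 9.09 ± 0.65 (SD, n = 4) in FVB Nx mice at day 53 through 10.53 ± 0.33 in FVB Nx mice at day 2 and 11.43 ± 0.27 in FVB Nx mice at day 28 to 12.75 ± 0.10 in B6 sham mice at day 53. In between, FVB sham mice at day 28 (11.86 ± 0.06) and day 2 (11.86 ± 0.12) and B6 Nx mice at day 2 (11.90 ± 0.21) were neighbours that did not differ beyond their spread. The same held for FVB sham mice at day 53 (12.11 ± 0.09) beside B6 Nx mice at day 28 (12.19 ± 0.48), and for B6 Nx mice at day 53 (12.38 ± 0.15) beside B6 sham mice at day 2 (12.47 ± 0.14).

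Wnk1, a kinase at the head of the pathway that activates Slc12a3, moved less and more evenly. At day 53 its probe set read 12.47, 12.50, 12.56 and 12.62 in FVB Nx mice and 13.30, 13.35, 13.38 and 13.38 in FVB sham mice. In B6 mice it read 13.24, 13.25, 13.28 and 13.29 against 13.47, 13.54, 13.54 and 13.56. Neither pair of groups overlapped, and the FVB gap was the wider. The differences were -0.47 in FVB and -0.45 in B6 at day 2 (SE 0.07 each, adjusted p = 2.98e-07 and 1.52e-06), -0.32 and -0.31 at day 28 (adjusted p = 0.00105 and 0.00137), and -0.82 and -0.26 at day 53 (adjusted p = 1.17e-12 and 0.00724). A second Wnk1 probe set did not share this course: its day 53 difference was 0.17 in FVB (SE 0.40, adjusted p = 0.79) and -0.04 in B6 (SE 0.40, adjusted p = 1). When all kept probe sets of a gene were averaged, limma called Wnk1 in none of the 6 surgery comparisons, and at day 53 in FVB the averaged difference was -0.32 (adjusted p = 0.218).

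Trpm6, the magnesium channel, was the other gene called lower at every day in both strains. In FVB mice at day 2 it read 5.43, 5.48, 5.52 and 6.13 after Nx and 7.28, 7.46, 7.56 and 7.65 after sham. At day 28 the Nx mice were spread over 5.17, 5.92, 6.56 and 7.08, all below the sham values of 7.19 to 7.63. At day 53 the 4 Nx mice had 4.79, 4.79, 4.84 and 4.92 and the sham mice 7.20, 7.41, 7.47 and 7.76. The differences were -1.85, -1.22 and -2.63 (SE 0.30 each, adjusted p = 1.39e-06, 0.00284 and 9.87e-10), and the remnant at day 53 had a 6.17-fold lower value. The FVB Nx values of day 53 were the lowest of this probe set on any array, with an SD of 0.06. Whether they lay at its background, so that the fall is understated, was not tested.

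In B6 mice Trpm6 fell by about the same amount at each day. At day 2 the Nx values were 6.15, 6.52, 6.69 and 7.14 and the sham values 7.19, 7.50, 7.60 and 8.14. At day 28 the Nx mice had 5.74, 6.77, 6.79 and 7.69 and the sham mice 7.77, 7.78, 7.88 and 8.16. At day 53 they had 6.76, 6.78, 6.82 and 7.75 against 7.81, 8.14, 8.24 and 8.48. The highest Nx mouse came close to the lowest sham mouse at all 3 days, without overlap. Differences were -0.99, -1.15 and -1.14 (SE 0.30 each, adjusted p = 0.00598, 0.00452 and 0.0058). The day 28 calls rested on the spread shared by all 48 arrays: with only the arrays of the comparison the limma adjusted p was 0.0831 in FVB and 0.112 in B6, and without B6 Nx mouse 3 the B6 difference was -0.81 (adjusted p = 0.06). A dimmer Trpm6 probe set (SE 0.25) shared the sign of all 6 differences and passed in 4: FVB at day 2 and day 53 (-0.78 and -0.77) and B6 at day 2 and day 28 (-0.72 and -0.78). It did not pass in FVB at day 28 (-0.27, adjusted p = 0.623) or in B6 at day 53 (-0.39, adjusted p = 0.416).

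Among the calcium genes, the calbindins in FVB fell at day 2, did not pass at day 28 and were lower again at day 53. Calb1, the larger calbindin, read 13.32, 13.54, 13.60 and 13.66 in FVB Nx mice at day 2 against 14.09, 14.16, 14.18 and 14.37 after sham. At day 28 it read 13.67, 13.81, 14.17 and 14.20 against 13.67, 13.80, 13.83 and 13.89, which overlap. At day 53 it read 11.56, 11.97, 12.16 and 12.19 against 13.73, 13.78, 13.86 and 14.12. The first and last pairs of groups lay apart, and the day 53 gap exceeded the whole range of either group. The differences were -0.67 (SE 0.13, adjusted p = 5.21e-05), 0.17 (SE 0.13, adjusted p = 0.457) and -1.90 (SE 0.13, adjusted p = 1.05e-14), the last a 3.74-fold lower value. The other 3 Calb1 probe sets were lower in FVB at day 53 as well, by -2.35, -2.47 and -3.08.

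S100g, the smaller calbindin, which is known to answer vitamin D, had 11.53, 11.57, 11.82 and 12.02 in FVB Nx mice at day 2 and 12.59, 12.64, 12.94 and 12.98 after sham. At day 28 the Nx values of 12.56 to 13.04 overlapped the sham values of 12.47 to 12.84. At day 53 the Nx mice had 10.95, 11.43, 11.70 and 11.70 and the sham mice 12.60, 12.64, 12.71 and 13.02. Its early fall (-1.05, SE 0.13, adjusted p = 4.38e-09) was thus close in size to the late one (-1.29, SE 0.13, adjusted p = 3.28e-11), and the difference between those 2 effects did not pass (-0.24, SE 0.18, adjusted p = 0.45). For Calb1 the late effect was the larger by -1.23 (SE 0.19, adjusted p = 1.27e-05).

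In B6 mice the calbindins were lower at day 2 alone among the 3 days tested. Calb1 read 13.89, 14.02, 14.17 and 14.34 after Nx against 14.51, 14.53, 14.57 and 14.59 after sham (-0.44, SE 0.13, adjusted p = 0.00679). S100g read 12.68, 12.77, 12.80 and 12.94 against 13.23, 13.25, 13.29 and 13.37 (-0.49, SE 0.13, adjusted p = 0.00167). Neither set of groups overlapped at day 2, and both overlapped at day 28 and day 53. The day 53 differences were 0.24 for Calb1 (SE 0.13, adjusted p = 0.252) and 0.16 for S100g (SE 0.13, adjusted p = 0.449). From day 2 to day 53 the B6 effect moved up by 0.68 for Calb1 (SE 0.19, adjusted p = 0.0123) and 0.65 for S100g (SE 0.18, adjusted p = 0.0109), and these were 2 of the 8 genes, against 7.26% of all genes. Part of both moves lay in the sham mice. The Calb1 group mean went from 14.55 to 14.21 in B6 sham mice and from 14.11 to 14.45 in B6 Nx mice. S100g went from 13.28 to 13.09 and from 12.80 to 13.25.

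The 2 calcium exit routes went opposite ways in FVB at day 2 and day 53. Slc8a1, the exchanger, read 7.57, 7.76, 8.14 and 8.53 in FVB Nx mice at day 53 and 9.60, 9.70, 9.75 and 10.03 after sham, a difference of -1.77 (SE 0.18, adjusted p = 1.49e-10). A second bright Slc8a1 probe set differed by -1.74 (SE 0.26). At day 2 the FVB difference was -0.58 (SE 0.18, adjusted p = 0.0069), and the B6 difference did not pass (-0.20, SE 0.18, adjusted p = 0.423). At day 28 neither strain passed (FVB 0.32, adjusted p = 0.262, B6 0.43, adjusted p = 0.0968, SE 0.18 each). Limma called both with array weights (adjusted p = 0.0374 and 0.00841) and without muscle arrays (adjusted p = 0.0478 and 0.0488). The B6 difference was also called without Nx mouse 3 (adjusted p = 0.0417) or sham mouse 6 (adjusted p = 0.0413). In B6 at day 53 the Nx mice had 10.72, 10.83, 10.91 and 10.92, all above the sham values of 10.25, 10.27, 10.43 and 10.68, yet the difference did not pass (0.44, SE 0.18, adjusted p = 0.103). Fitted on the arrays of that comparison alone, limma called it (adjusted p = 0.0305), and another, dim probe set passed over all arrays (0.54, SE 0.14, adjusted p = 0.0116).

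Atp2b1, the calcium pump that most cell types carry, was the only one of the 8 genes to rise. In FVB at day 2 it read 10.22, 10.86, 10.93 and 11.05 after Nx against 10.00, 10.15, 10.26 and 10.42 after sham, and the lowest Nx mouse lay inside the sham range. In B6 at day 2 it read 10.32, 10.37, 10.61 and 10.79 against 9.77, 9.84, 10.09 and 10.22, without overlap. In FVB at day 53 it read 9.99, 10.57, 10.81 and 10.93 against 9.61, 10.02, 10.27 and 10.29, which overlap. The rises were 0.56 (SE 0.20, adjusted p = 0.0181), 0.54 (SE 0.20, adjusted p = 0.0267) and 0.53 (SE 0.20, adjusted p = 0.026). Shifting all arrays to 1 median, which moved the median difference of all genes from -0.03 to -0.21 in FVB and from -0.02 to -0.15 in B6 at day 2 and from -0.01 to -0.17 in FVB at day 53, ended the 3 calls (0.39, adjusted p = 0.0891; 0.42, adjusted p = 0.0779; 0.36, adjusted p = 0.113). The other Atp2b1 probe sets rose in the same 3 comparisons, by 0.26 to 0.53, and one of them had 0.53 in FVB at day 2 (SE 0.09, adjusted p = 1.35e-05). With the brightest probe set, single mice also decided the calls: in FVB at day 53 the adjusted p was 0.084 without Nx mouse 10, 0.114 without Nx mouse 4 and 0.134 without sham mouse 6, and in FVB at day 2 it was 0.0711 without Nx mouse 1, 0.0524 without Nx mouse 4 and 0.0589 without sham mouse 4. In B6 at day 2 the call was lost without Nx mouse 3 or 11 or sham mouse 4 or 5.

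**Figure D2:**
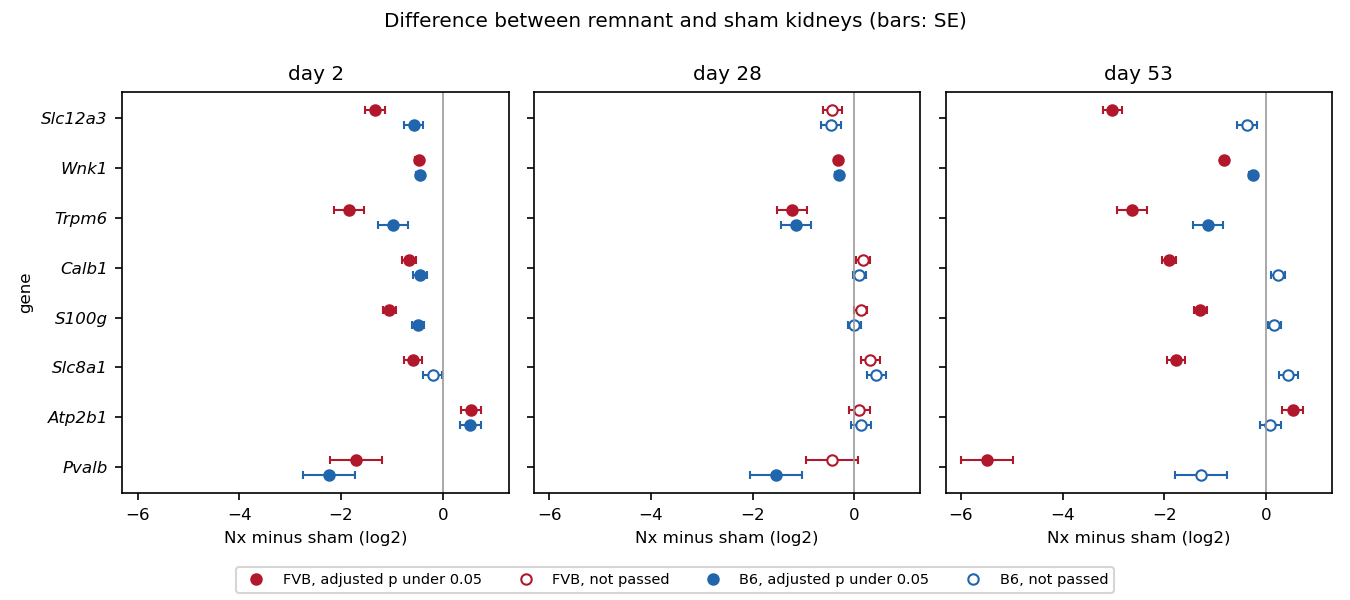
Nx minus sham difference of each gene (log2, x axis) at day 2, 28 and 53, with FVB in red and B6 in blue; bars are SE, filled points have a limma adjusted p under 0.05 and open points do not. At day 53 the FVB points of 7 genes lie to the left of the B6 points, from Pvalb at -5.49 to Wnk1 at -0.82, while Atp2b1 lies to the right of 0.

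Pvalb, a calcium buffer of the early distal convoluted tubule, had the largest fall of the 8 genes. In FVB mice at day 2 it read 8.23, 8.65, 8.70 and 9.11 after Nx and 10.27, 10.32, 10.40 and 10.53 after sham. At day 28 the Nx values of 9.05, 9.28, 9.82 and 10.07 reached into the sham values of 9.86 to 10.10. At day 53 the Nx mice had 3.28, 4.05, 4.29 and 7.07 and the sham mice 10.01, 10.03, 10.18 and 10.43. One remnant, mouse 7, lay well above the other 3 and still below all sham mice. The differences were -1.71 (SE 0.51, adjusted p = 0.00456), -0.44 (SE 0.51, adjusted p = 0.65) and -5.49 (SE 0.51, adjusted p = 1.13e-11), the last a 44.8-fold lower value.

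In B6 mice Pvalb was low at day 2 and scattered later. The Nx mice had 5.35, 5.49, 6.89 and 7.43 at day 2 against 8.29, 8.53, 8.53 and 8.77 after sham (-2.24, SE 0.51, adjusted p = 0.00042). At day 28 they had 5.20, 7.36, 7.58 and 8.17 against 8.56 to 8.77 (-1.54, SE 0.51, adjusted p = 0.0292). At day 53 they had 6.28, 7.70, 7.87 and 8.29 against 8.67 to 8.92 (-1.28, SE 0.51, adjusted p = 0.0885). Every Nx mouse lay below every sham mouse at all 3 days, and the Nx spread (SD of at least 0.87) was wider than the sham spread (SD of at most 0.20). The day 28 call was lost without Nx mouse 3 (-0.92, limma adjusted p = 0.253) and without sham mouse 5 (-1.56, adjusted p = 0.0554) or sham mouse 6 (-1.49, adjusted p = 0.0639). The day 53 difference passed with array weights (-1.17, adjusted p = 0.0124) and without muscle arrays (adjusted p = 0.0319). It also passed with pancreas as a covariate (-1.50, adjusted p = 0.0394) and without pancreas arrays (-0.73, adjusted p = 0.00863). With Myh1 as a covariate (-0.54, adjusted p = 0.615), or when any single mouse was left out, it did not pass.

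Since fast muscle also makes Pvalb, each array was read for Myh1, the myosin heavy chain of fast fibres, and 12 other muscle genes. Of these 13 genes, 8 passed the filter on low values, Myh1 among them. The 24 sham arrays held Myh1 at 4.48 to 7.44. The mean of the other muscle genes that passed stayed at 2.46 to 2.98, close to the lowest value in the table (2.20). Tnnt3, which fast muscle expresses strongly, was at that lowest value on all 24 sham arrays and reached 7.91 on Nx arrays. Myh2 was at it too, but its probe set reached only 3.32 on any Nx array, so it says little. Not all muscle genes were at the lowest value on sham arrays. Mylpf read 3.82 to 4.51 there, with the same median of 3.87 on sham and Nx arrays. Myl1 and Myh4 reached 3.28 and 3.14, but were near the lowest value on 22 and 23 of the 24 sham arrays. The 24 Nx arrays had a median Myh1 of 2.97. FVB Nx mouse 3 of day 28 and FVB Nx mice 7 and 8 of day 53 held both: Myh1 at 8.88, 11.31 and 7.67 and a muscle mean of 5.54, 7.94 and 5.44.

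The 2 remnants with muscle transcripts at day 53 had Pvalb at 7.07 and 4.05, and those without had 4.29 and 3.28. Leaving out the 3 arrays with muscle transcripts, an alternative added after the data were seen, gave a day 53 difference of -6.37 in FVB (limma adjusted p = 2.6e-12), so the fall was as large without them. With Myh1 as a covariate it was -5.40 (adjusted p = 2.58e-12), but the FVB day 2 difference became -1.15 (adjusted p = 0.0542) and the B6 day 28 difference -0.86 (adjusted p = 0.292). Myh1 itself was lower in most Nx arrays than in sham arrays, so this covariate also carries surgery.

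Across the 48 arrays, the deviations of Pvalb and of Myh1 from their group means were related by Pearson r = 0.44 (permutation p = 0.00448, adjusted over 3 relations 0.0134) and Spearman rho = 0.12 (permutation p = 0.436, adjusted 0.436). Without the 2 arrays farthest out in Myh1, r was 0.29. By surgery, r was -0.37 over the 24 sham arrays (permutation p = 0.0717, adjusted 0.0717; rho = -0.32, p = 0.125, adjusted 0.188; r = -0.23 without the 2 farthest) and 0.48 over the 24 Nx arrays (permutation p = 0.019, adjusted 0.0285; rho = 0.38, p = 0.0688, adjusted 0.188; r = 0.34 without the 2 farthest). The sign within the sham arrays was thus opposite to that of the pooled relation. Permutations ran over all arrays of a set and not within groups. The SD of Pvalb ran from 0.10 in B6 sham mice at day 28 to 1.65 in FVB Nx mice at day 53, so these p-values are approximate.

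**Figure D3:**
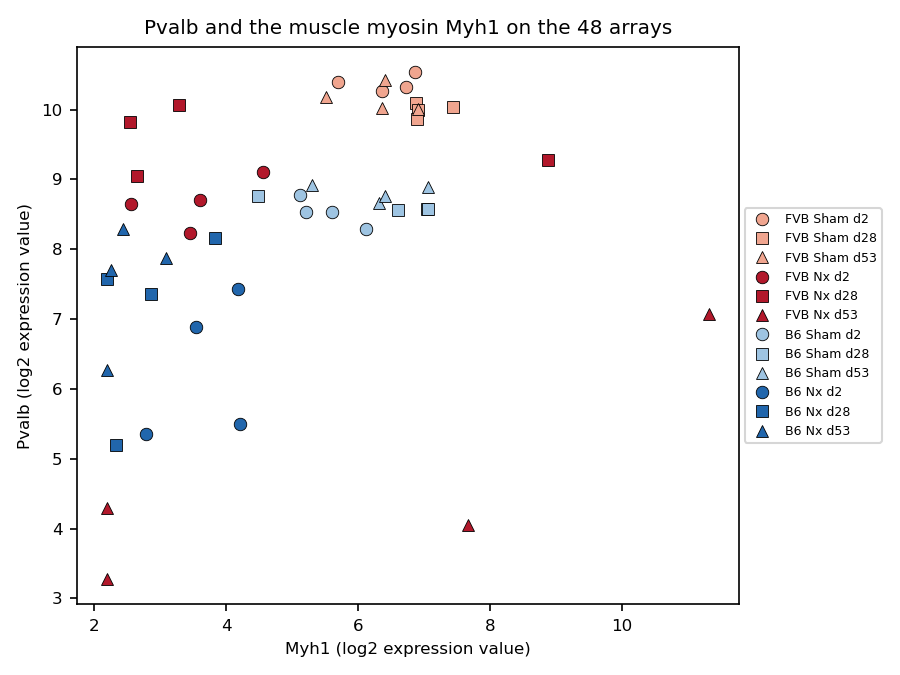
Pvalb against the muscle myosin Myh1 (log2 expression values) on the 48 arrays; shape gives the day and colour the strain and surgery. Sham mice form 1 band per strain at Myh1 4.48 to 7.44, most Nx mice lie to the left of it, and the 3 Nx arrays with muscle transcripts lie at Myh1 7.67, 8.88 and 11.31.

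Did the surgery effect itself differ between the strains? At day 2 none of the 8 genes passed this test with limma, against 4.41% of all genes, and 3 passed at an unadjusted p of 0.05. S100g came nearest (FVB minus B6 -0.57, SE 0.18, adjusted p = 0.0583), ahead of Slc12a3 (-0.76, SE 0.28, adjusted p = 0.105). At day 28 none passed, against 0.129% of all genes, 0 passed unadjusted, and every adjusted p was 1. At day 53, 7 of the 8 passed, all with the lower effect in FVB, where 14.9% of all genes did so. The strain difference was -4.21 for Pvalb (SE 0.72, adjusted p = 2.66e-05), -2.64 for Slc12a3 (SE 0.28, adjusted p = 3.89e-09), -2.21 for Slc8a1 (SE 0.26, adjusted p = 4.39e-08) and -2.14 for Calb1 (SE 0.19, adjusted p = 1.36e-10). It was smaller for Trpm6 (-1.48, SE 0.42, adjusted p = 0.0061), S100g (-1.46, SE 0.18, adjusted p = 1.05e-07) and Wnk1 (-0.56, SE 0.10, adjusted p = 3.92e-05). Other probe sets did not share all of these: the Wnk1 difference was -0.17 (adjusted p = 0.74) with its probe sets averaged, that of the dimmer Trpm6 probe set was -0.37 (SE 0.36, adjusted p = 0.538), and that of a dim second Slc12a3 probe set was 0.02 (SE 0.34, adjusted p = 0.989). Atp2b1 did not pass (0.44, SE 0.29, adjusted p = 0.268). The count was also 7 without the arrays that carried muscle transcripts and without those that carried pancreas transcripts.

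The FVB effect also changed with time. From day 2 to day 28 it moved up for 4 of the 8 genes, against 12.8% of all genes: S100g by 1.18, Slc12a3 by 0.91, Slc8a1 by 0.90 and Calb1 by 0.84 (adjusted p = 5.03e-06, 0.0131, 0.00902 and 0.0011). For Calb1 and Slc8a1 part of this move lay in the sham mice. The Calb1 group mean went from 14.20 to 13.80 in FVB sham mice and from 13.53 to 13.96 in FVB Nx mice. Slc8a1 went from 10.10 to 9.75 and from 9.51 to 10.07. The sham mean of Slc12a3 was 11.86 at both days. From day 28 to day 53 the FVB effect moved down for 7 of 8, against 12.6% of all genes, by -5.04 for Pvalb (SE 0.72, adjusted p = 1.98e-06), -2.59 for Slc12a3, -2.09 for Slc8a1, -2.07 for Calb1, -1.42 for S100g, -1.40 for Trpm6 and -0.50 for Wnk1. The day 53 effect was below the day 2 effect for 5 of 8 (5.20% of all genes): Pvalb, Slc12a3, Calb1, Slc8a1 and Wnk1, but not for Trpm6 (-0.78, SE 0.42, adjusted p = 0.258) or S100g. The Wnk1 call there (-0.35, adjusted p = 0.0148) was lost without FVB sham mouse 4 of day 2 (-0.29, adjusted p = 0.05), without muscle arrays (-0.32, adjusted p = 0.0508), without pancreas arrays (-0.25, adjusted p = 0.149) and with averaged probe sets (-0.13, adjusted p = 0.86), and averaging also ended the Wnk1 call from day 28 to day 53 (-0.14, adjusted p = 0.809). In B6 limma called none of the 8 from day 2 to day 28 (8.86% of all genes) or from day 28 to day 53 (0% of all genes), where 3 and 0 passed unadjusted. These comparisons share arrays with one another, since each effect enters more than 1 of them.

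The strains also differed in these transcripts without nephrectomy. Over the 24 sham mice, 6 of the 8 genes were lower and 1 was higher in FVB than in B6, against 15.6% and 16.9% of all genes. Slc12a3 was lower by -0.68 (SE 0.11, adjusted p = 4.9e-06), Slc8a1 by -0.63, S100g by -0.42, Calb1 by -0.40 and Wnk1 by -0.18, the last not called with averaged probe sets (-0.05, adjusted p = 0.816). Pvalb went the other way, with sham values of 9.86 to 10.53 in FVB and 8.29 to 8.92 in B6 (1.52, SE 0.30, adjusted p = 6.55e-05). The Trpm6 difference (-0.44, SE 0.17, adjusted p = 0.0432) was no longer called when any of 15 single sham mice was left out, with B6 sham mouse 2 of day 2 giving the highest adjusted p (0.0915). Atp2b1 did not pass (0.26, adjusted p = 0.0867). Between sham mice of day 2 and of the later days, limma called none of the 8 genes in FVB (3.58% of all genes) or B6 (0.782%), and 2 and 2 passed unadjusted. In both strains these 2 were Calb1 and Slc8a1, each higher at day 2. The differences were 0.37 and 0.33 in FVB (limma unadjusted p = 0.00313 and 0.0417) and 0.28 and 0.35 in B6 (unadjusted p = 0.019 and 0.0355).

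Other genes of the same pathways were read from lists, also chosen with earlier results of these data known. Their counts at day 53 stand against all genes tested, of which 27.8% fell and 25.9% rose in FVB and 6.68% fell and 8.03% rose in B6. Of 11 measured partners of salt transport, 6 fell and 5 did not pass in FVB at day 53, and 3 fell and 8 did not pass in B6. Wnk4, a second kinase of the pathway, fell by 1.64 in FVB (SE 0.11, adjusted p = 5.79e-15) and fell by 0.38 in B6 (SE 0.11, adjusted p = 0.0171). Ppp1r1a, a phosphatase inhibitor of this segment, fell too (-2.51 and -0.74, SE 0.18 each, adjusted p = 3.07e-14 and 0.00418). Kcnj10, the basolateral potassium channel that sets the salt uptake of these cells, fell by 1.07 in FVB (SE 0.13, adjusted p = 2.92e-09). Stk39, the kinase that phosphorylates Slc12a3, was among the 6, and Oxsr1, its close relative, did not pass.

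Of 10 measured magnesium genes, 4 fell, 1 rose and 5 did not pass in FVB at day 53, where 27.8% of all genes fell and 25.9% rose. In B6 2 fell, 1 rose and 7 did not pass, where 6.68% of all genes fell and 8.03% rose. With 10 genes, the FVB counts are near those shares and are no result about the list. Egf, the growth factor that stimulates Trpm6 and is made in this segment and the thick ascending limb, read 9.69, 10.16, 10.85 and 11.15 in FVB Nx mice at day 53 and 13.85, 13.87, 13.88 and 13.88 after sham. No value came near the other group, and the difference was -3.41 (SE 0.17, adjusted p = 6.19e-19). Pcbd1 fell by 1.16 (SE 0.10, adjusted p = 1.4e-12). Fxyd2, a subunit of the sodium pump, fell by 0.52 (SE 0.06, adjusted p = 1.94e-09). In B6 the Egf difference at day 53 did not pass (-0.46, SE 0.17, adjusted p = 0.0572).

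Of 5 transcription factors and other markers of the segment, 4 fell in FVB (27.8% of all genes) and 3 in B6 (6.68%) at day 53, and the others did not pass. Esrrb, an orphan nuclear receptor, differed by -2.84 in FVB (SE 0.26, adjusted p = 1.01e-11) and -1.07 in B6 (SE 0.26, adjusted p = 0.00368). Emx1 differed by -1.61 (SE 0.16, adjusted p = 4.36e-11) and -0.59 (SE 0.16, adjusted p = 0.00849). Tmem52b differed by -1.65 (SE 0.11, adjusted p = 2.2e-15) and -0.48 (SE 0.11, adjusted p = 0.00161). Tfap2b, an AP-2 factor of this segment, fell by 0.83 in FVB (SE 0.14, adjusted p = 3.71e-06) and did not pass in B6 (-0.31, SE 0.14, adjusted p = 0.138).

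Of the 10 genes of calcium hormones and channels, 6 fell, 1 rose and 3 did not pass in FVB at day 53, where 27.8% of all genes fell and 25.9% rose. In B6 3 fell, 2 rose and 5 did not pass, where 6.68% fell and 8.03% rose. The calcium-sensing receptor Casr fell in both (-2.19 in FVB, SE 0.18, adjusted p = 3.56e-13, and -0.81 in B6, SE 0.18, adjusted p = 0.00108). So did Kl, the coreceptor for a phosphate hormone (-1.81 and -0.56, SE 0.16 each, adjusted p = 5.14e-12 and 0.0142). Klk1, a protease of the connecting tubule, fell by 1.31 in FVB (SE 0.10, adjusted p = 2.69e-14).

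**Figure D4:**
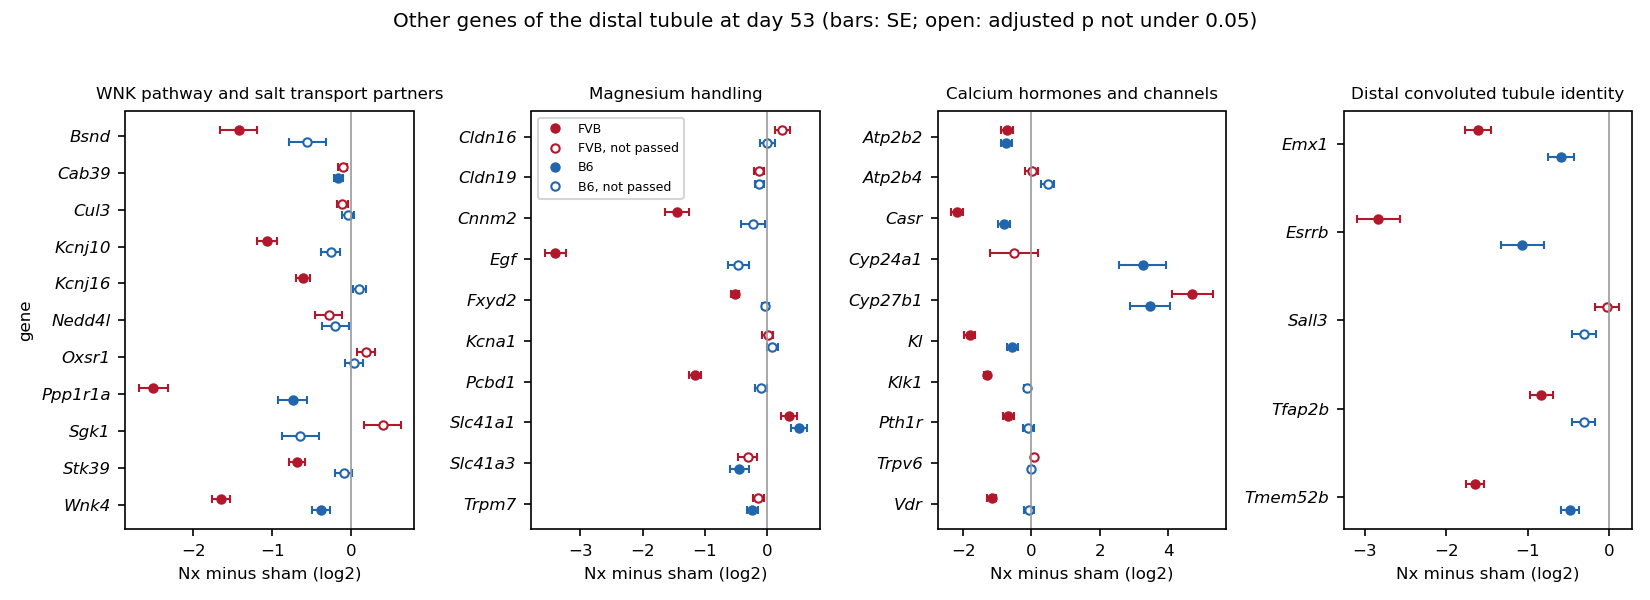
Nx minus sham difference at day 53 (log2, x axis) of the other genes of 4 lists in FVB (red) and B6 (blue), each list with its own axis range; bars are SE and open points did not pass at an adjusted p of 0.05. Egf at -3.41, Esrrb at -2.84 and Ppp1r1a at -2.51 in FVB are the farthest to the left, and Cyp27b1 is the farthest to the right in both strains.

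Likeness to the other genes on the array was read as Pearson r over the 48 arrays, which share strain, surgery and day as sources of variation, and is given as a description. The transcripts closest to Slc12a3 were Tmem52b (r = 0.950), Cabcoco1 (0.942), Aamdc (0.939), Hdhd2 (0.935) and Itpr2 (0.934). S100g, Calb1 and Wnk1 had r of 0.907, 0.905 and 0.903 with it, and Pvalb 0.455. Closest to Calb1 was Slc8a1 (0.960), followed by Prdx3 (0.927), Cwh43 (0.925), Klk1 (0.924) and Pgam2 (0.907). Within groups, where strain, surgery and day are removed, Calb1 and Slc8a1 still had r = 0.79, Slc12a3 and Slc8a1 0.71 and Slc12a3 and Pvalb 0.15.

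Transcripts of other cells moved with surgery on the same arrays. The 24 sham arrays held kidney markers at high and even levels, such as Umod of the thick ascending limb at 14.90 to 15.33. All 5 macrophage genes measured (Cd68, Adgre1, Csf1r, Lyz2 and Cd14) rose in FVB at day 2 and day 53 and in B6 at day 2. Their mean per array was 10.47 to 10.98 in FVB Nx mice at day 53 against 6.54 to 7.26 after sham, and 8.99 to 9.49 in B6 Nx mice at day 53 against 6.84 to 7.69. Their part in the falls of the distal tubule genes was not tested. Of the 10 genes of neighbouring segments, 9 fell in FVB (27.8% of all genes) and 5 in B6 (6.68%) at day 53. Their median differences were -0.89 and -0.41, beside -1.84 and -0.09 for the 8 distal tubule genes. At day 2 they were -0.90 in FVB and -0.59 in B6, beside -0.86 and -0.47. At day 28 they were -0.29 and -0.40, beside -0.11 and -0.15. The 2 measured glomerular genes had a median of -1.82 in FVB and -0.49 in B6 at day 53. A fall after surgery was thus not particular to the distal tubule genes.

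Transcripts of pancreatic enzymes averaged over 5 in 16 of the 24 kidneys from Nx mice and in 3 of the 24 from sham mice, and the mean of the 13 measured genes reached 14.92 in FVB Nx mice at day 2. Without those arrays, which leaves 2 Nx mice in each strain at day 53, 7 of the 8 genes fell in FVB at that day. At day 2 and day 28 a single Nx mouse is left in each strain and is assumed to vary like the other groups, so those counts say little: 7 fell in FVB and 4 in B6 at day 2, and 0 in FVB and 4 in B6 at day 28. The mean of the skeletal muscle genes other than Myh1 was above 5 on the 3 arrays named above and at most 2.98 on the other 45.

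**Figure D5:**
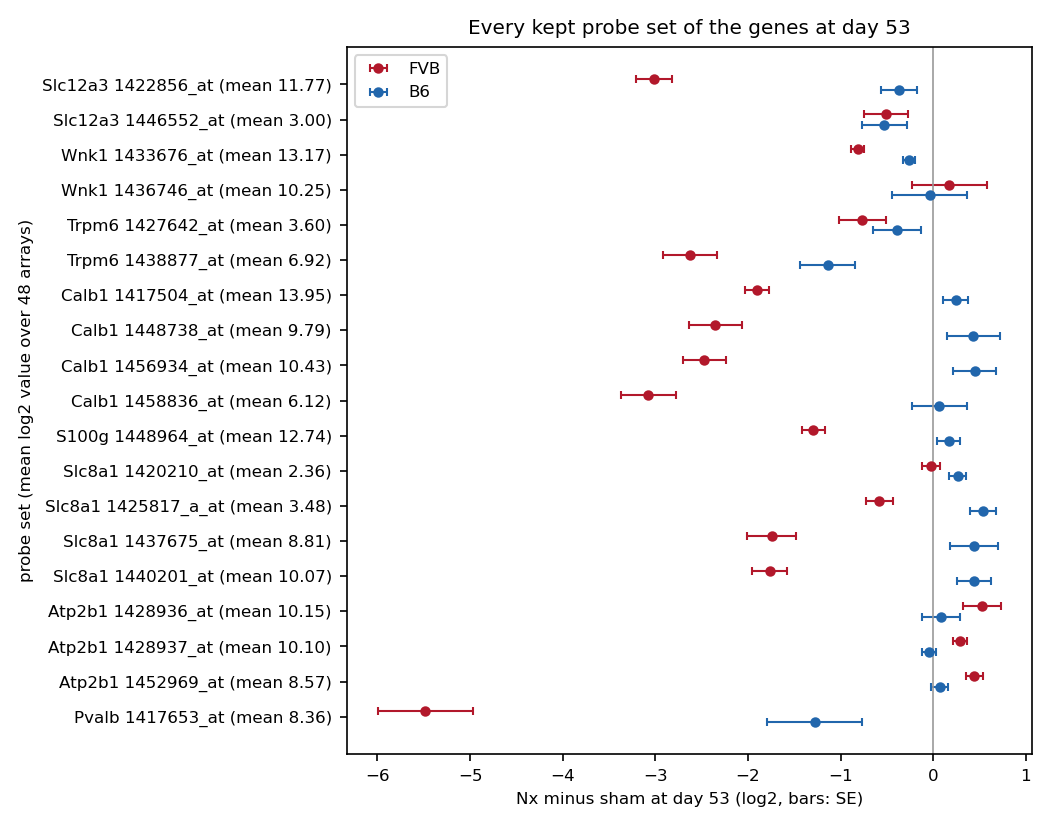
Nx minus sham difference at day 53 (log2, x axis) of every kept probe set of the 8 genes, in FVB (red) and B6 (blue), with bars for SE and the mean over the 48 arrays beside each name. The 4 Calb1 probe sets and the 2 brighter Slc8a1 probe sets fall together in FVB, while the second Wnk1 probe set lies at 0.17.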

How the data were processed

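Whole-kidney RNA of 48 mice was measured on Affymetrix arrays. The values are the log2 expression values the authors deposited, 1 column per mouse, for 45101 probe sets. They ranged from 2.20 to 16.18, and 32.1% of them were at the lowest value. The submitters' processing notes name MAS5 with no role, and background correction, summarisation and scaling are not given in the sources used here. Groups came from the labels. Probe sets were named through GEO's platform annotation: 34945 had 1 gene symbol, 932 had several and were not named, and the rest were unnamed here.

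Each gene was represented by its single-symbol probe set with the highest mean, kept where at least 4 arrays exceeded the 40th percentile of all values (2.28), which left 13174 genes. Means of the 12 groups were fitted over all 48 arrays with limma 3.58.1 in R 4.3.3 (empirical Bayes with an intensity trend, 36 residual degrees of freedom), and 18 contrasts were tested with Benjamini-Hochberg adjustment at 0.05. The fit was tested on simulated data. Correlations used 100000 permutations in Python 3.11.15 with numpy 2.4.6 and scipy 1.17.1. The number of arrays limits the precision. The labels call the arrays of a group separate mice.

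Members and gene lists were chosen with earlier results of these data known. All members are named. From the lists of pathway partners, up to 3 genes with the smallest p among those past the threshold in a surgery comparison are named, as are the 5 genes closest to Slc12a3 and to Calb1, markers of other tissues where a result turns on them, and a few genes (Stk39, Oxsr1, Vdr, Cyp24a1) chosen after their values were seen. Mouse numbers recur across groups, and the labels do not say whether they pair mice, so the fits are unpaired. Alternatives covered normalization, filters, the intensity trend, array weights, the arrays fitted, the choice of probe set, mouse number, Myh1, and each mouse left out. Leaving out arrays with muscle or pancreas transcripts (mean over 5), and pancreas as a covariate, were added after seeing the data.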

Additional observations from a re-analysis of the deposited data

Results flagged for a closer look

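Of 96 sets of 4 mice (8 genes in 12 groups), 6 held a mouse farther from the other 3 than Dixon's critical value allows, and chance alone gives about 5% of sets. Pvalb was 8.77 in B6 sham mouse 6 of day 28, against 8.56 to 8.58 in the others. Trpm6 was 7.75 in B6 Nx mouse 7 of day 53, against 6.76 to 6.82, and 6.13 in FVB Nx mouse 5 of day 2, against 5.43 to 5.52. Atp2b1 was 9.28 in B6 sham mouse 6 of day 28, against 9.97 to 9.98. Wnk1 was 13.45 in B6 sham mouse 1 of day 28, against 13.53 to 13.54, and 13.10 in FVB sham mouse 4 of day 2, against 13.30 to 13.34.

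The effect of surgery differed between strains or days in 25 tests over the 8 genes (limma, adjusted over all genes). FVB minus B6 at day 53 gave -2.64 for Slc12a3, -4.21 for Pvalb, -2.14 for Calb1, -1.48 for Trpm6, -2.21 for Slc8a1, -1.46 for S100g and -0.56 for Wnk1. In FVB, day 28 minus day 2 gave 0.91 for Slc12a3, 0.84 for Calb1, 0.90 for Slc8a1 and 1.18 for S100g. Day 53 minus day 28 in FVB gave -2.59 for Slc12a3, -5.04 for Pvalb, -2.07 for Calb1, -1.40 for Trpm6, -2.09 for Slc8a1, -1.42 for S100g and -0.50 for Wnk1. Day 53 minus day 2 in FVB gave -1.68 for Slc12a3, -3.77 for Pvalb, -1.23 for Calb1, -1.18 for Slc8a1 and -0.35 for Wnk1. In B6, day 53 minus day 2 gave 0.68 for Calb1 and 0.65 for S100g.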

How the results depend on the processing

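The counts of the 8 genes called in FVB at day 2 and day 53, and in the strain difference at day 53, stayed within 1.5 times under every alternative, with 7 to 8, 7 to 8 and 7 to 7 called when single mice were left out. Counts with few calls moved. In FVB at day 28, 2 became 4 with array weights, 1 with averaged probe sets, and 0 with the comparison's own arrays or without pancreas arrays. In B6, 7 at day 2 became 4 without pancreas arrays, 3 at day 28 became 0 with the comparison's own arrays and 5 without muscle arrays, and 2 at day 53 became 6 with array weights and 4 with the comparison's own arrays. The strain difference at day 2 went from 0 to 1 with a median shift, with Myh1 as a covariate or with mouse number as a block, to 2 with array weights or without muscle or pancreas arrays, and to 0 to 1 without single mice. At day 28 it went from 0 to 2 without pancreas arrays. For B6, day 28 minus day 2 went from 0 to 4 with array weights, 1 with its own arrays, 2 without muscle or pancreas arrays and 0 to 3 without single mice. Day 53 minus day 28 went from 0 to 2 without pancreas arrays, and day 53 minus day 2 from 2 to 4 with array weights. Between sham days, FVB went from 0 to 1 with array weights, its own arrays or without muscle arrays, and 0 to 1 without single mice, and B6 from 0 to 2 with array weights. Of 10 pairs of Nx and sham mice with 1 number, 5 had a correlation of residuals over 0.1, against 16 of 86 other pairs. In FVB at day 2, the set with the most shared numbers, it was 1 of 4, and 2 of the 4 Nx mice correlated best with their own number. With so few pairs this check cannot settle whether the numbers pair mice. They were not taken as pairs because the labels do not state it. With mouse number as a block, the estimated correlation within a block was 0.13. The replicate block changed no other count by over 1.5 times (S100g at day 2: -0.56, limma adjusted p = 0.0445). Pvalb's B6 change from day 2 to day 28, 0.70, reversed to -1.80 without pancreas arrays, which leaves 1 Nx mouse per day, and Pvalb against Myh1 reversed to -0.37 in sham mice. Beyond these results, 125 of 2102 uncalled values changed sign. The number of mice, 4 a group, and the 32.1% of values at the lowest level limit what dim probe sets can show.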

Other observations

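The enzymes of vitamin D, the hormone that raises calbindin transcripts, moved apart from the calcium genes at day 53. Cyp27b1, which makes the active hormone, rose by 4.72 in FVB (SE 0.60, limma adjusted p = 1.34e-08) and by 3.47 in B6 (SE 0.60, adjusted p = 5.84e-05). FVB sham mice had Cyp27b1 at 2.42 to 2.96, near the lowest value in the table (2.20), so the rise there may be understated. Cyp24a1, which breaks it down, rose by 3.25 in B6 (SE 0.70, adjusted p = 0.000918) and did not pass in FVB (-0.52, SE 0.70, adjusted p = 0.569). The test of the strain difference for Cyp24a1 gave -3.77 (SE 0.99, adjusted p = 0.00329). Vdr, the receptor, fell by 1.16 in FVB (SE 0.14, adjusted p = 4.53e-09) and was -0.06 in B6 (SE 0.14, adjusted p = 0.87). These comparisons share their arrays with those of the calbindins.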
